A study of Rattus norvegicus with 9 samples.

Results

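Marker genes of striatal projection neurons were examined in brain tissue of rats after middle cerebral artery occlusion, a surgical model of ischaemic stroke. The set held 7 of the 32883 genes listed, and all 7 were among the 15051 genes tested. They are identified by Ensembl ID: Drd1 (ENSRNOG00000023688), Tac1 (ENSRNOG00000007374), Pdyn (ENSRNOG00000026036), Drd2 (ENSRNOG00000008428), Adora2a (ENSRNOG00000001302), Penk (ENSRNOG00000008943) and Ppp1r1b (ENSRNOG00000028404). The names are those given with the IDs when the set was chosen, since the deposited table lists IDs alone. RNA was sequenced in 3 groups of 3 libraries. PN rats had the occlusion and received Panax notoginseng, a medicinal root rich in saponins, MCAO rats had the occlusion alone, and sham rats had a sham operation. Libraries go by group and sample code, as in sham 5B. The labels give the tissue as brain and say nothing of region, hemisphere, strain, age, dose or time. Whether each library stands for its own animal is not stated either, and p-values therefore cover only the spread among these libraries.

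Striatal projection neurons are the GABA-releasing output cells of the striatum, a deep forebrain nucleus that the middle cerebral artery supplies together with much of the cortex. They form a pair of classes. Cells of the direct pathway carry the dopamine D1 receptor (Drd1) and make substance P (from Tac1) and dynorphin (from Pdyn), while cells of the indirect pathway carry the dopamine D2 receptor (Drd2) and an adenosine receptor (Adora2a) and make enkephalin (from Penk). Both classes hold DARPP-32 (Ppp1r1b), a protein phosphatase inhibitor through which dopamine and adenosine signals are combined. Pdyn is also made in hippocampal granule cells and the hypothalamus, Ppp1r1b in deep cortical layers and the choroid plexus, and Drd1 in the cortex.

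All 7 markers were highest in the same library, sham 5B, and 6 of them were there 8.0 to 13.5 times as high as in the next library. Sham 5B was the highest of the 9 libraries for 10% of all genes tested. Values are FPKM, fragments scaled to transcript length and to the number of mapped fragments, which can be compared between genes of different length. The 7 genes summed to 2131 FPKM in sham 5B, or 0.541% of that library's total, against 103 to 227 FPKM in the other 8 libraries, or 0.0255% to 0.0565%. The other sham libraries, 4B and 9A, were at 209.7 and 139 FPKM, within the range of the PN and MCAO libraries. No member was listed at 0 in any library.

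**Figure D1:**
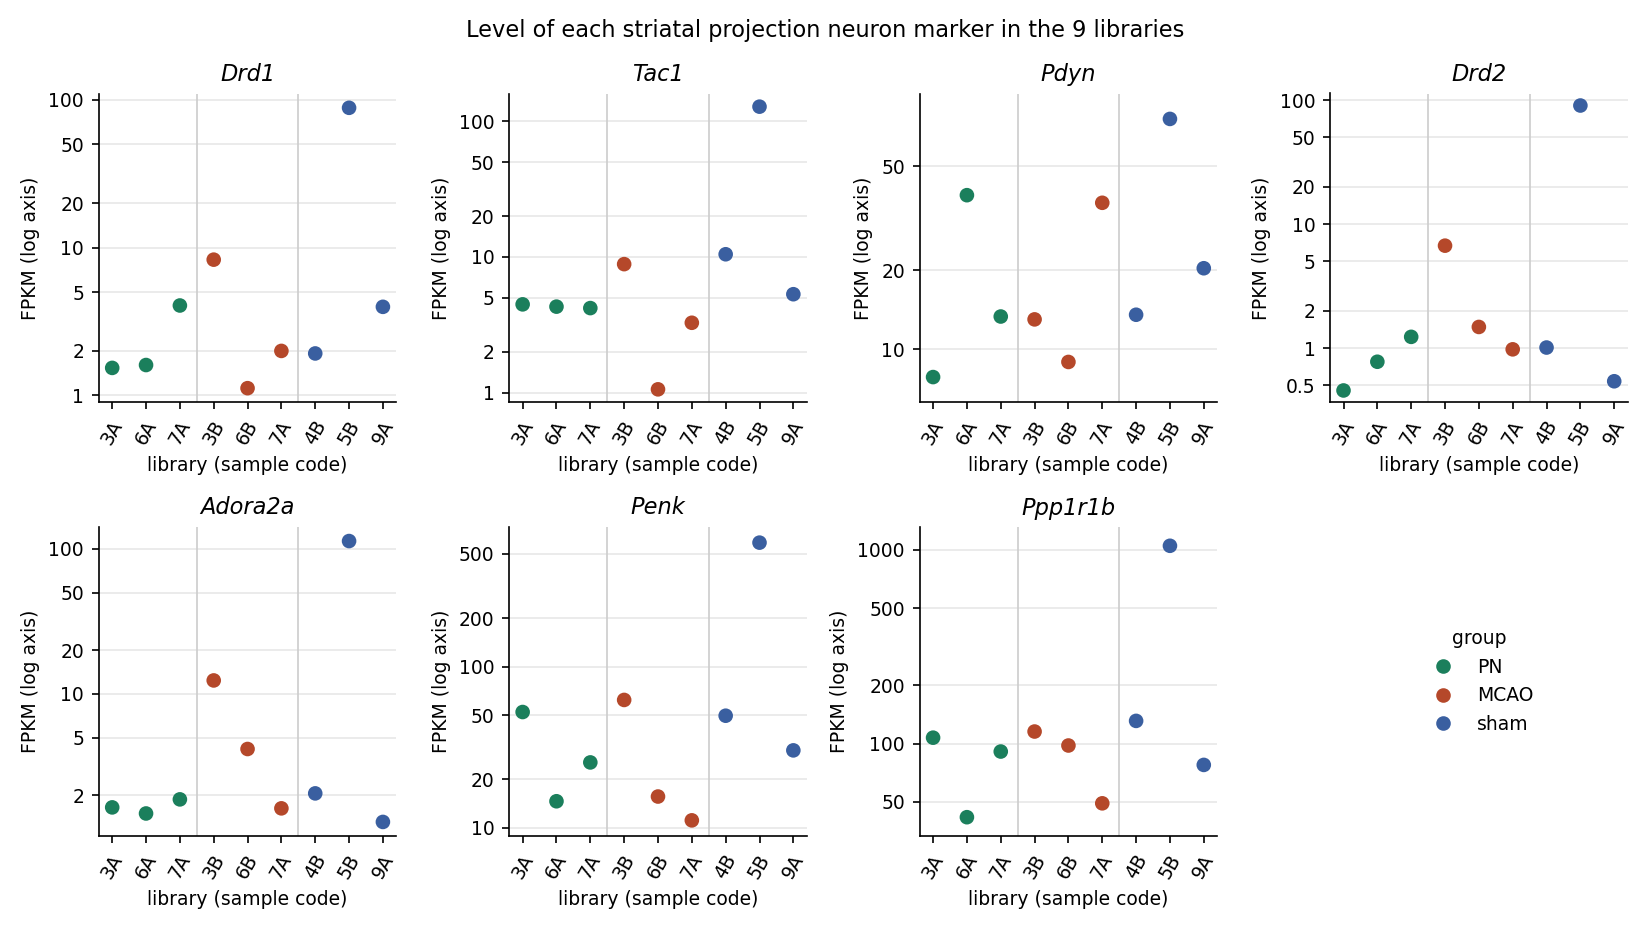
FPKM of each marker on a log axis, 1 point per library, with PN at the left, MCAO in the middle and sham at the right of each panel. Sham 5B is the highest point in every panel, and for Pdyn PN 6A and MCAO 7A stand above the other 6 libraries as well.

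Among the direct pathway genes, the receptor Drd1 and the substance P precursor Tac1 stood far above the rest in sham 5B, and Pdyn less so. Drd1 measured 1.53 FPKM in PN 3A, 1.60 in PN 6A and 4.05 in PN 7A, then 8.29 in MCAO 3B, 1.12 in MCAO 6B and 2.0 in MCAO 7A, against 1.92 in sham 4B, 88.5 in sham 5B and 3.97 in sham 9A. Without sham 5B the sham libraries lay within the range of both other groups combined, and MCAO 3B was the highest of the 8. Tac1 measured 4.48 FPKM in PN 3A, 4.31 in PN 6A and 4.20 in PN 7A, then 8.86 in MCAO 3B, 1.06 in MCAO 6B and 3.28 in MCAO 7A, against 10.5 in sham 4B, 128 in sham 5B and 5.32 in sham 9A. The PN values of Tac1 were nearly alike and lay below every sham value, the lone case of groups that did not overlap among these genes. Between PN and sham, 8.71% of all genes tested had no overlap. Pdyn, the dynorphin precursor, measured 7.84 FPKM in PN 3A, 38.7 in PN 6A and 13.3 in PN 7A, then 13.0 in MCAO 3B, 8.96 in MCAO 6B and 36.2 in MCAO 7A, against 13.6 in sham 4B, 75.6 in sham 5B and 20.4 in sham 9A. Pdyn thus had a single high library in each group, and its level in sham 5B was 1.95 times that of PN 6A, the next highest.

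Among the indirect pathway genes, Drd2 had the widest step between sham 5B and the next library of all 7 markers, 13.5-fold. Drd2 measured 0.456 FPKM in PN 3A, 0.777 in PN 6A and 1.23 in PN 7A, then 6.70 in MCAO 3B, 1.48 in MCAO 6B and 0.978 in MCAO 7A, against 1.01 in sham 4B, 90.3 in sham 5B and 0.541 in sham 9A. It was 90.8 times as high in sham 5B as at the median of the other 8 libraries. Adora2a measured 1.65 FPKM in PN 3A, 1.5 in PN 6A and 1.87 in PN 7A, then 12.4 in MCAO 3B, 4.17 in MCAO 6B and 1.62 in MCAO 7A, against 2.06 in sham 4B, 113 in sham 5B and 1.31 in sham 9A. For both receptors MCAO 3B came after sham 5B and MCAO 6B came next. Penk, the enkephalin precursor, measured 52.3 FPKM in PN 3A, 14.6 in PN 6A and 25.5 in PN 7A, then 62.1 in MCAO 3B, 15.7 in MCAO 6B and 11.1 in MCAO 7A, against 49.6 in sham 4B, 586 in sham 5B and 30.3 in sham 9A. Penk spread 5.57-fold over the 8 libraries other than sham 5B, within which PN and MCAO libraries lay on both sides of sham 9A.

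Ppp1r1b was the most abundant of the 7 in every library and the one with the most even level outside sham 5B. It measured 107 FPKM in PN 3A, 41.7 in PN 6A and 91.0 in PN 7A, then 115 in MCAO 3B, 97.8 in MCAO 6B and 49.2 in MCAO 7A, against 131 in sham 4B, 1048 in sham 5B and 77.7 in sham 9A. The 8 libraries other than sham 5B spread 3.14-fold, and the lowest were PN 6A and MCAO 7A, the libraries in which Pdyn was high. As bulk tissue was measured, fewer cells of a type and less RNA per cell cannot be told apart.

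The promoter table of RefSeq (assembly GRCr8) held 4 of the 7 genes. Sequences are shown for Drd2 and Pdyn, the 2 in which the 250 bases before the start lay wholly outside the gene's span. Levels played no part in that choice. Drd2 had the widest gap between sham 5B and the next library and Pdyn the narrowest (3.57 and 0.95 on the log2(FPKM + 1) scale). Capitals mark the GC box (GGGCGG) and the TATA box (TATAAA), each searched on both strands. A match is a description of the letters, not a binding site.
Drd2 (chr8:58605153-58605402, plus strand): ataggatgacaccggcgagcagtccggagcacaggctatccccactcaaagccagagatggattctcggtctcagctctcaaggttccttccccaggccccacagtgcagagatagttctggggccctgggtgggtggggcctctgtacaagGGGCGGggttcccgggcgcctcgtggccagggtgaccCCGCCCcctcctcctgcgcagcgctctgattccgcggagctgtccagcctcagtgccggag
Pdyn (chr3:137366504-137366753, minus strand): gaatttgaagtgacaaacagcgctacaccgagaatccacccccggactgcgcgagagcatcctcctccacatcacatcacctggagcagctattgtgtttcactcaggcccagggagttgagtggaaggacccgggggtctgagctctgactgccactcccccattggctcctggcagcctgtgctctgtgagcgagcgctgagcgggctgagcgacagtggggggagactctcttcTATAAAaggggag
The Drd2 window held 2 GC boxes and no TATA box, and the Pdyn window 1 TATA box and no GC box. Of the 33469 windows of this length in the table, 30.5% held the GC box and 12.9% the TATA box. Whether these differences bear on the levels was not tested.

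Sham 5B stood apart from the other libraries by wide gaps in few genes, and these markers were among the foremost. On the log2(FPKM + 1) scale, it was the highest library by at least 1 in 105 genes. The other libraries ranged from 2 such genes (sham 9A) to 28 (PN 6A). Downward gaps of at least 1 were found in 51 genes for sham 5B and in 190 for PN 3A. Sham 5B was the highest library by at least 3 in 8 genes (0.0532% of those tested). Of these, 5 were members, Drd1, Drd2, Adora2a, Penk and Tac1. Ppp1r1b, at 2.99, fell just short of that gap. Of the 10 genes with the widest gap, 6 were members, and Pdyn was at rank 112. An upward gap of at least 2 was found in 26 genes for sham 5B, in 4 for sham 4B, in 1 for MCAO 6B and in none for the other 6 libraries. Downward gaps of at least 2 were found in 11 genes for PN 3A, in 8 for sham 5B and in 5 each for PN 6A and PN 7A. They were found in 4 each for MCAO 3B and MCAO 7A, in 3 for sham 9A, in 2 for sham 4B and in 0 for MCAO 6B. Relative depth was read from the ratio most common among low values (11 to 21 genes a library). In sham 5B it was 1.28 with MCAO 3B as 1, and the other libraries ranged up to 1.33 in PN 7A. The sum of FPKM ranged from 387893 to 445693 over the libraries, with 394059 in sham 5B. How much striatum each sample held is not given in the labels and was not tested, and markers of other cell types could not be set beside these genes, since the other IDs could not be paired with names.

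Set as a share of the sham 5B level, the markers lay close together in 1 further library and apart in the rest. In MCAO 3B, 6 markers lay between 6.92% (Tac1) and 11% (Ppp1r1b) of sham 5B, with Drd1 at 9.36%, Drd2 at 7.42%, Adora2a at 10.9% and Penk at 10.6%, and Pdyn was at 17.2%. In sham 4B the receptors were at 2.17% (Drd1), 1.12% (Drd2) and 1.82% (Adora2a), while Tac1 was at 8.18%, Penk at 8.46% and Ppp1r1b at 12.5%. In PN 3A Drd2 was at 0.504% and Penk at 8.92%. Across the 8 libraries Drd2 stayed between 0.504% and 7.42% of sham 5B, and Pdyn between 10.4% and 51.2%.

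**Figure D2:**
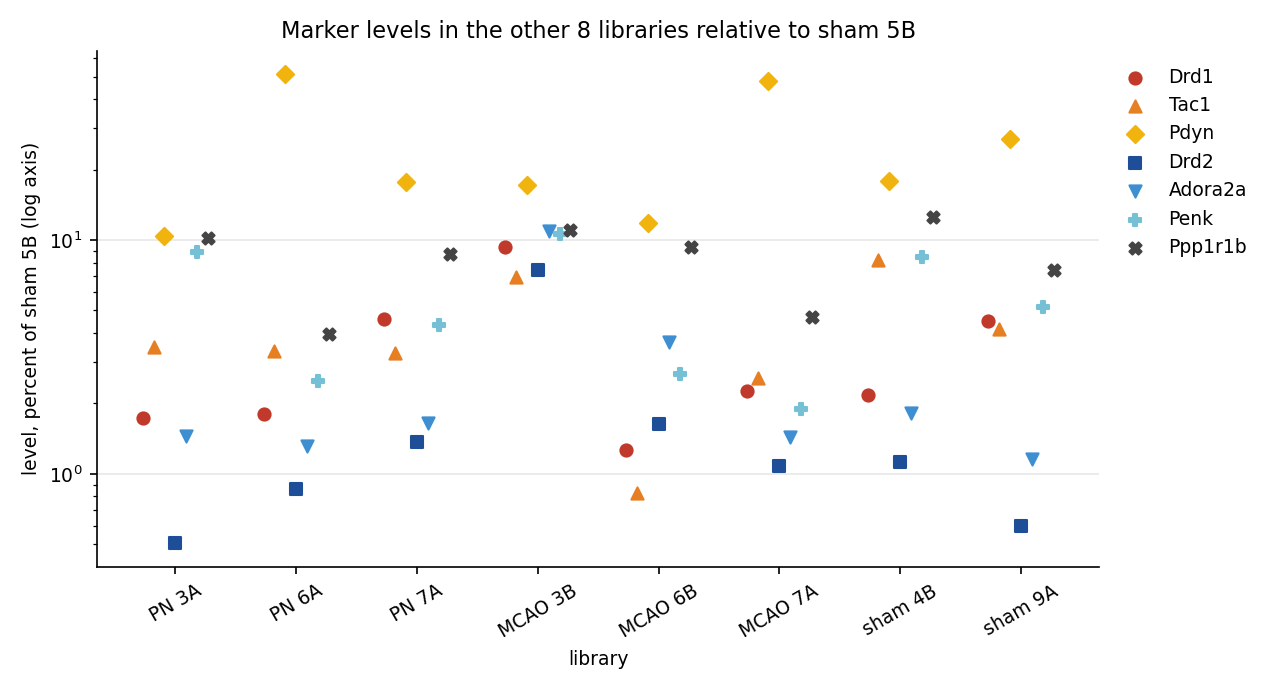
Level of each marker in the 8 libraries other than sham 5B, as a percent of its level in sham 5B on a log axis, with 1 symbol per gene. The symbols for all genes but Pdyn lie close together in MCAO 3B, between 6.92% and 11%, and spread over more than a decade in PN 3A, MCAO 6B, sham 4B and sham 9A.

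Of the variation of each marker over the 9 libraries on the log2(FPKM + 1) scale, sham 5B added between 47.3% (Pdyn) and 86.2% (Drd2). The median was 81.9%, against 7.28% for all genes tested. Differences between group means held a median of 23.8% of the variation of the 7 genes, against 29.0% for all genes tested. Without sham 5B these medians were 12.4% for the markers and 29.1% for all genes.

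MCAO was compared with sham to see what the occlusion changed. In this comparison 0 of the 7 markers passed the test (limma, adjusted p under 0.05), where 0.00664% of all genes tested did. Their log2 differences ran from -2.25 (Tac1) to -0.72 (Adora2a), all below 0, with a median of -1.41 against -0.01 for all genes. Tac1 had a standard error of 0.98 and a 95% interval from -4.45 to -0.05 (limma, adjusted p = 0.442). It was the single marker at an unadjusted p under 0.05, which 11.1% of all genes reached. The median standard error was 1.04 for the markers against 0.26 for all genes. The markers thus needed larger differences to reach that level, and the share of all genes is not a like background. The number of markers at an unadjusted p under 0.05 ranged between 0 and 3 as single libraries were left out. It was 0 without sham 5B, and also without MCAO 6B, MCAO 7A, PN 3A, PN 6A or PN 7A. In those fits between 1071 and 2124 of the 15051 genes reached it. It was 1 without sham 4B (1377 of all genes), 2 without MCAO 3B (1124 of all genes) and 3 without sham 9A (10.4% of all genes). Penk was at -2.06 and its standard error was 1.04 (limma, adjusted p = 0.495). In 0 of the 7 genes were the groups free of overlap, against 19.6% of all genes. Mean levels showed the spread: Penk averaged 29.7 ± 28.2 FPKM in the MCAO group, against 222 ± 316 FPKM in sham (SD, n = 3 each), and Drd2 averaged 3.05 ± 3.17 FPKM in the MCAO group, against 30.6 ± 51.7 FPKM in sham (SD, n = 3 each). In each gene the sham SD exceeded or came near the sham mean.

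For Drd1, Drd2 and Adora2a the direction of the difference rested on sham 5B. Without it the log2 differences ran from -0.94 (Tac1) to 1.09 (Adora2a), 3 above 0 and 4 below, with a median of -0.03 against -0.03 for all genes. Drd2 was then at 0.93 (limma, adjusted p = 0.692) and Adora2a at 1.09 (SE 0.57; limma, adjusted p = 0.692), both with the sign turned. None of the 7 passed at an adjusted p under 0.05, as 0.00664% of all genes did, nor at an unadjusted p under 0.05, as 7.12% of all genes did. The intervals stayed wide: that of Adora2a ran from -0.22 to 2.40, and that of Penk from -2.40 to 0.86.

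**Figure D3:**
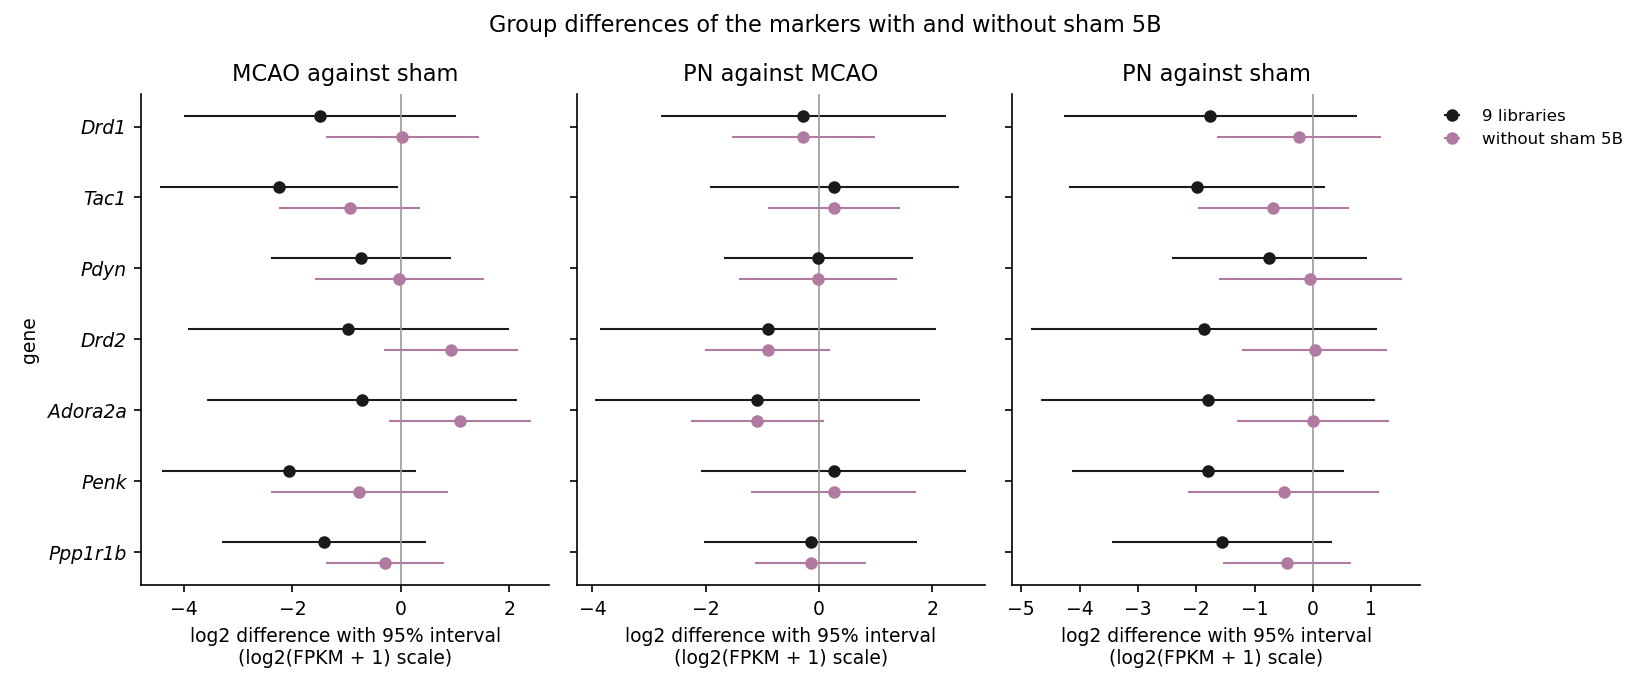
Log2 difference of each marker on the log2(FPKM + 1) scale with its 95% interval from limma, in 1 panel per comparison. Black points use all 9 libraries and violet points leave out sham 5B; in MCAO against sham, Drd1, Drd2 and Adora2a lie below 0 with sham 5B and above 0 without it.

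PN was compared with MCAO to see how treated and untreated rats differed after the occlusion. Neither group holds sham 5B, and the means were close for most markers: Penk averaged 30.8 ± 19.4 FPKM in the PN group, against 29.7 ± 28.2 FPKM in MCAO, and Ppp1r1b averaged 80.0 ± 34.2 FPKM in the PN group, against 87.5 ± 34.3 FPKM in MCAO (SD, n = 3 each). Again 0 of the 7 passed at an adjusted p under 0.05, against 0.00664% of all genes. At an unadjusted p under 0.05 there were 0, against 13.2% of all genes. These shares are not a like background, since the median standard error was 1.04 for the markers and 0.26 for all genes. Sham 5B enters the shared estimate of the spread, and without it the markers' median standard error was 0.51. The groups overlapped in all 7, while 20.3% of all genes had no overlap. Log2 differences ran from -1.09 (Adora2a) to 0.27 (Tac1), with a median of -0.15 against 0.07 for all genes.

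The receptors of the indirect pathway were furthest from 0. Adora2a averaged 1.67 ± 0.189 FPKM in the PN group, against 6.06 ± 5.63 FPKM in MCAO (SD, n = 3 each), with a log2 difference of -1.09 (SE 1.27; limma, adjusted p = 0.736). Drd2 averaged 0.822 ± 0.390 FPKM in the PN group, against 3.05 ± 3.17 FPKM in MCAO (SD, n = 3 each), with a log2 difference of -0.90 (SE 1.32; limma, adjusted p = 0.792). All libraries share 1 estimate of the spread, and without sham 5B the standard error of Adora2a was 0.51 and its interval ran from -2.25 to 0.08 (limma, adjusted p = 0.425). MCAO 3B was the highest MCAO library for both receptors. With MCAO 3B left out, the log2 difference was -0.46 for Adora2a and -0.30 for Drd2, and that of Drd1 was 0.35, against -0.27 with all libraries. Sample codes end in A in all PN libraries and in B in MCAO 3B and 6B, and the labels do not say what the letter stands for. With the letter as a covariate both differences changed sign, to 0.48 for Adora2a (limma, adjusted p = 0.906) and 0.52 for Drd2 (limma, adjusted p = 0.904). In that fit 6 of the 7 markers lay above 0. As no PN code ends in B, the letter's effect came from the MCAO and sham libraries alone. Sham 5B, far above the rest in these genes, is among those with a B. The letter was not fitted without sham 5B, so these turns cannot be told apart from that library.

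PN was compared with sham to see what remained different in treated rats. The sham libraries are those of the MCAO comparison, so both share sham 5B. In this comparison 0 of the 7 passed at an adjusted p under 0.05, against 0.0199% of all genes, and 0 reached an unadjusted p under 0.05, against 4.25%; without sham 9A 3 did, against 5.75% of all genes, and without sham 4B 1 did, against 6.48%. With all 9 libraries the median standard error was again 1.04 for the markers against 0.26 for all genes. Log2 differences ran from -1.98 (Tac1) to -0.75 (Pdyn), with a median of -1.80 against 0.04 for all genes. With the code's letter as covariate the median log2 difference was -0.51 against 0.05 for all genes. Adora2a was then at -0.24, Drd2 at -0.44 and Ppp1r1b at -0.45. Here too the letter's effect came from the MCAO and sham libraries alone, sham 5B included. Tac1 averaged 4.33 ± 0.138 FPKM in the PN group, against 47.9 ± 69.4 FPKM in sham (SD, n = 3 each), with a standard error of 0.98 on the log2 difference (limma, adjusted p = 0.974). It was the 1 marker of 7 in which the groups did not overlap, against 8.71% of all genes. Without sham 5B the log2 differences ran from -0.68 (Tac1) to 0.03 (Drd2), with a median of -0.24 against 0.02 for all genes. None passed at an adjusted p under 0.05, as 0.0133% of all genes did, or at an unadjusted p under 0.05, as 1.69% did. The 95% interval of Tac1 was then -1.98 to 0.62, and that of Ppp1r1b was -1.53 to 0.66.

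Direct and indirect pathway genes were set against each other by ratios of their levels within each library. The log2 ratio of Drd1 to Drd2 (FPKM + 1) averaged 0.84 ± 0.32 in PN, 0.21 ± 0.42 in MCAO and 0.73 ± 0.88 in sham (SD, n = 3 each). It was closest to 0 in sham 5B (-0.03), then in MCAO 6B (-0.23) and MCAO 3B (0.27). Both receptors were highest in sham 5B and MCAO 3B, while Drd1 was lowest in MCAO 6B. The ratio was highest in sham 9A (1.69) and PN 7A (1.18), where Drd1 was at about 4 FPKM and Drd2 near 1 FPKM or below. Drd1 to Adora2a ran from -1.29 in MCAO 6B to 1.11 in sham 9A. With a pseudocount of 0.1 in place of 1, Drd1 to Drd2 averaged 1.38 in PN, 0.29 in MCAO and 1.17 in sham. Outside sham 5B and MCAO 3B, Drd2 lay between 0.456 and 1.48 FPKM, so this ratio depends on the pseudocount there. Drd1 and Pdyn are also made outside the striatum, and where Tac1 and Penk were made in these samples was not tested. The ratios therefore need not show the balance of the striatal pathways. The ratios are given as descriptions, with no test.

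The ratios of the peptide precursors varied most outside sham. Tac1 to Penk averaged -2.40 ± 0.86 in PN, -2.40 ± 0.79 in MCAO and -2.21 ± 0.09 in sham (SD, n = 3 each), so that Penk exceeded Tac1 in all libraries. The sham libraries were alike in this ratio (-2.14, -2.19 and -2.31), although Tac1 was at 128 FPKM in sham 5B and at 5.32 FPKM in sham 9A. Pdyn to Penk averaged -0.71 ± 1.97 in PN, -0.43 ± 1.91 in MCAO and -1.76 ± 1.2 in sham (SD, n = 3 each). It was above 0 in PN 6A (1.34) and MCAO 7A (1.62) alone, and lowest in sham 5B (-2.94).

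**Figure D4:**
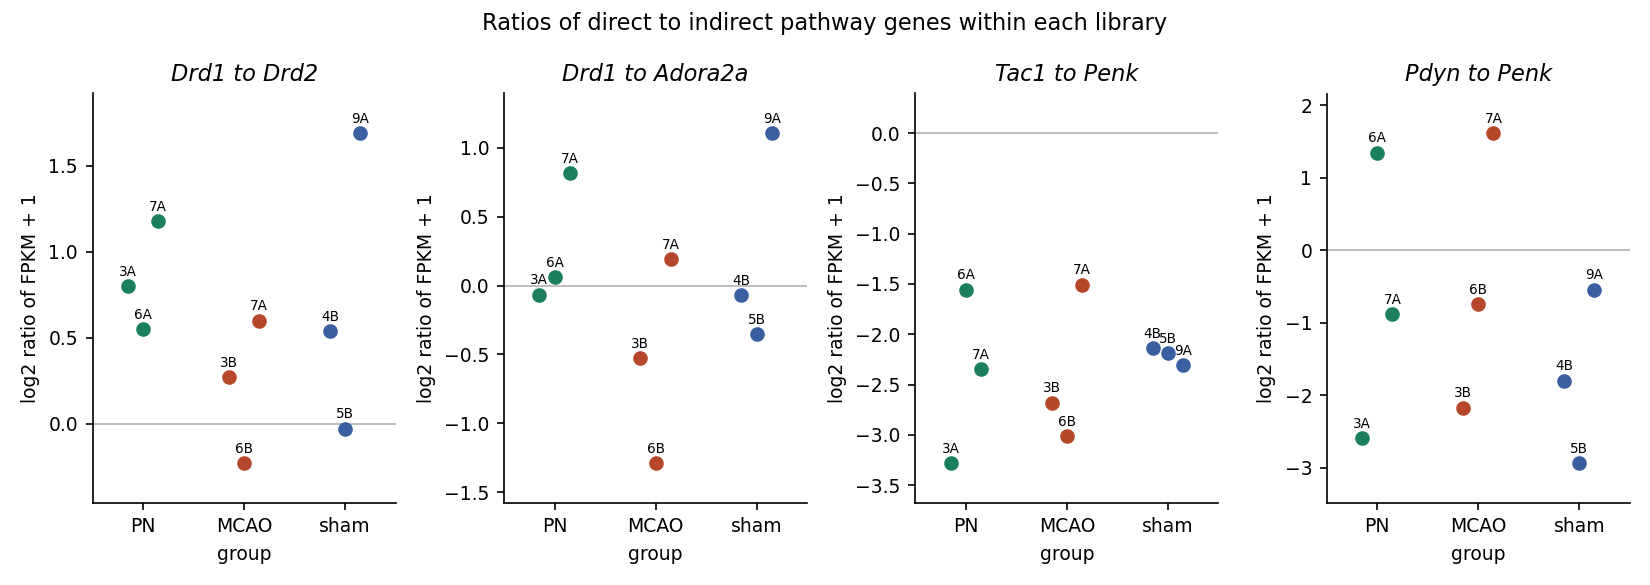
Log2 ratio of FPKM + 1 between a direct and an indirect pathway gene in each library, 1 panel per ratio, with PN at the left, then MCAO, then sham, and the sample code above each point. Groups overlap in each panel, sham 9A is highest for both Drd1 ratios, and PN 6A and MCAO 7A are the points above 0 for Pdyn to Penk.

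Across all 9 libraries the 21 pairs of markers had a median Pearson r of 0.88, from 0.36 to 0.99, values that rest on sham 5B. Across the other 8 libraries the median was 0.34, from -0.88 to 0.96, and since all pairs come from the same libraries, these values are not independent of each other. Drd2 and Adora2a, the receptors of the indirect pathway, stayed together (r = 0.96, exact permutation p = 0.00136, adjusted over 21 pairs 0.0286; rho = 0.83, exact permutation p = 0.0154, adjusted 0.193). Leaving out MCAO 3B and PN 3A, the libraries furthest from the median of Drd2, gave r = 0.84. Penk, the other indirect pathway gene, followed them less, with r = 0.35 for Drd2 (exact permutation p = 0.479) and r = 0.40 for Adora2a (exact permutation p = 0.352). With Tac1, a direct pathway gene, Penk had r = 0.72 (exact permutation p = 0.0362, adjusted 0.190) and rho = 0.76 (exact permutation p = 0.0368, adjusted 0.193). Penk and Ppp1r1b had r = 0.81 (exact permutation p = 0.0153, adjusted 0.107) and rho = 0.81 (exact permutation p = 0.0218, adjusted 0.193), and r = 0.71 without MCAO 3B and MCAO 7A. Pdyn and Ppp1r1b went opposite ways (r = -0.88, exact permutation p = 0.00739, adjusted 0.0776; rho = -0.69, exact permutation p = 0.0694, adjusted 0.291), a relation that shrank to r = -0.41 without PN 6A and MCAO 7A and so rested on these libraries. Drd1 and Drd2 had r = 0.70 (exact permutation p = 0.0793, adjusted 0.333) and rho = 0.33 (exact permutation p = 0.428, adjusted 0.749), and r = -0.54 without MCAO 3B and PN 7A.

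**Figure D5:**
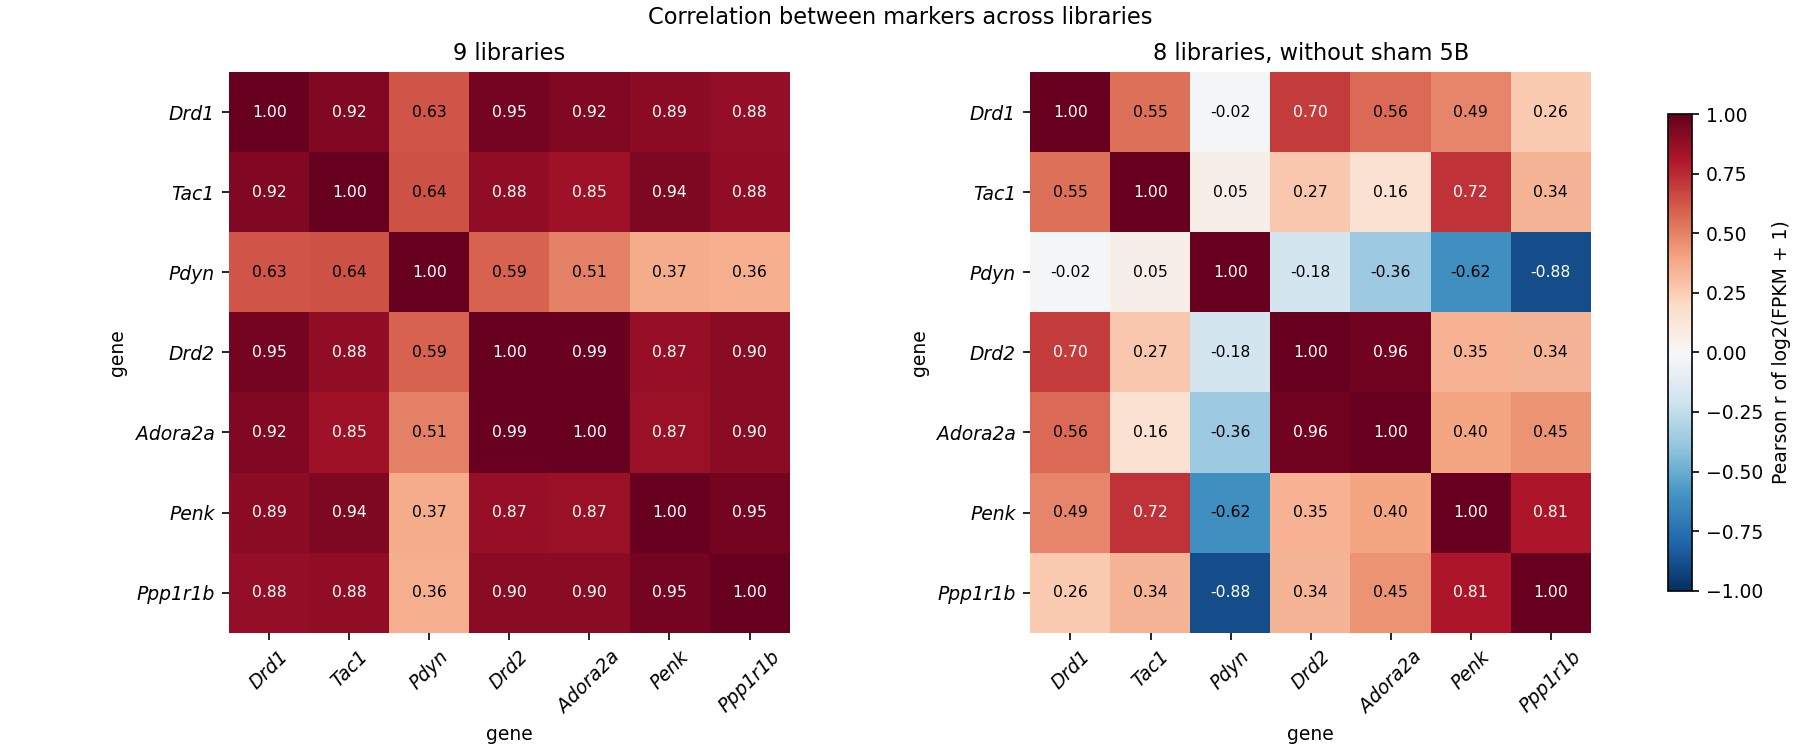
Pearson r of log2(FPKM + 1) between each pair of markers over 9 libraries (left) and over the 8 libraries other than sham 5B (right), on a colour scale from -1 (blue) to 1 (red). Most pairs are red at the left, and at the right the pairs that stay near their value are Drd2 with Adora2a (0.96) and Penk with Ppp1r1b (0.81), while Pdyn with Ppp1r1b is -0.88.

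The genes whose pattern was most like the mean of the 7 standardized markers were ranked by Pearson r over the 9 libraries. The 10 closest had r from 0.957 to 0.991, and all 10 were highest in sham 5B. The mean of the markers was 2.33 in sham 5B and between -0.58 and 0.28 in the other libraries, so the ranking and these r rest on that library. The closest, ENSRNOG00000003800, measured 2.47 FPKM in PN 3A, 3.61 in PN 6A and 3.99 in PN 7A, then 12.1 in MCAO 3B, 1.36 in MCAO 6B and 2.98 in MCAO 7A, against 4.94 in sham 4B, 196 in sham 5B and 2.44 in sham 9A. The next, ENSRNOG00000019985 (r = 0.980), was at 29.8 FPKM in sham 5B and between 2.17 and 5.2 FPKM in the others. In all, 43 of the 15044 other genes (0.286%) had r of at least 0.9.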

How the data were processed

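The authors deposited 1 table of FPKM per gene and library, per the file headers. StringTie 1.3.1, HISAT2, fastp 0.18.0 and Bowtie2 2.2.8 are named, per the submitters' processing notes, with no role for any. Genome build, annotation and strandedness: not given in the sources used here. Columns were matched to samples by the code that ends their names; code 7A ends 2 titles and was placed by the start of the name, which a group's columns share, PN 3A and sham 9A excepted. The reference table (GRCr8) paired 0 IDs with a symbol, so marker lists of other cell types were not used.

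Genes with at least 1 FPKM in at least 3 libraries were tested. Values as deposited, on the log2(FPKM + 1) scale, which understates changes of low genes, entered 1 limma fit of all 9 libraries with a mean-variance trend (limma 3.58.1, R 4.3.3), two-sided, with Benjamini-Hochberg adjustment over all genes tested. The fit was tested on simulated data. Correlations were computed in Python 3.11.15 with numpy 2.4.6. All members were named in every comparison, and of the genes most like them the closest IDs. Members and lists were chosen with earlier results of these data known.

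Absolute depth is unknown; relative depth came from the ratio at which values under 0.15 FPKM pile up between libraries. Alternatives were another pseudocount, filters, scalings, a fit of the libraries compared, a covariate, a replicate block and each library left out.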

Additional observations from a re-analysis of the deposited data

How the results depend on the processing

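No marker passed in any comparison under any alternative run (limma, smallest adjusted p = 0.293, Tac1 in MCAO against sham without PN 3A and sham 9A). Of the log2 differences recomputed under alternatives, 131 equalled the main value and so bear nothing on stability; of the other 245, 20 changed sign. Ranges over libraries left out in turn, in log2, were -2.44 to 0.031 for Drd1, -2.01 to 0.93 for Drd2 and -1.72 to 1.09 for Adora2a in MCAO against sham, and -2.92 to 0.028 for Drd2 and -2.81 to 0.0058 for Adora2a in PN against sham; these 5 turned only without sham 5B. In PN against MCAO the ranges were -0.71 to 0.35 for Drd1, -0.21 to 0.98 for Penk, -0.62 to 0.54 for Pdyn, -0.51 to 0.26 for Ppp1r1b and -0.29 to 0.84 for Tac1. Taking the sample code's letter as covariate turned that comparison to 0.48 for Drd1, 0.52 for Drd2, 0.48 for Adora2a and 0.97 for Ppp1r1b. The letter's effect came from MCAO and sham libraries alone, sham 5B included, and was not fitted without sham 5B. The cause was not tested. PN 3A and sham 9A have column names that start unlike those of their groups. Leaving both out turned PN against MCAO to -0.20 for Penk and 0.46 for Pdyn, the values given by leaving out PN 3A alone.

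Counts over all genes were small. MCAO against sham called 1 gene, 3 with the 6 libraries compared, 3 without PN 3A and sham 9A, and 1 to 3 with libraries left out in turn. PN against MCAO called 1, 4 with no filter, 2 without PN 3A and sham 9A, 0 with the replicate block (smallest adjusted p = 0.134), and 1 to 4 with libraries left out. Same-numbered PN and MCAO libraries did not deviate together (r across genes 0.06, -0.40 and -0.16), so the numbers were not taken to pair samples. With a pseudocount of 0.1 the mean log2 ratio of Drd1 to Drd2 was 1.38 in PN and 1.17 in sham, and that of Tac1 to Penk was -2.30 in sham. The median r between markers was 0.34 to 0.91 with libraries left out in turn, the lowest without sham 5B. A minimum of 5 FPKM left 4 of the 7 markers in the test. FPKM keeps no read numbers, so what depth limits for the receptors near 1 FPKM could not be computed.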
